A study of Mus musculus with 4 samples.

Results

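The genes described here encode the chaperones of the cytosol and of the mitochondria, with their helper proteins: 44 genes, taken by symbol, of the 22417 in a ribosome profiling count table. They comprise 8 subunits of the chaperonin TRiC, 6 prefoldin subunits, 3 HSP90 chaperones, 8 cochaperones of HSP90 and HSP70, 7 HSP70 and HSP110 chaperones, 7 HSP40 (J-domain) proteins, the 2 mitochondrial chaperonin genes, and Hspb1, Bag3 and Hsf1. Of these, 39 had enough counts to be tested, and the other 5 (Ptges3, Hspa1a, Hspa1b, Dnajb6 and Hspb1) had between 0 and 6 counts over all libraries together. Ribosome profiling sequences the mRNA fragments that ribosomes shield from nuclease, so a gene's count depends on its mRNA level and on how densely that mRNA is being read. No matched RNA-seq was used here, and mRNA level and translation cannot be told apart.

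The cells were bone-marrow-derived monocytes from mice with a Nat10 conditional knockout (cKO, 2 libraries) and from wild-type mice (WT, 2 libraries), all taken after 3 days of induction with RANKL, the cytokine that turns monocytes into osteoclasts. Nat10 is the enzyme that acetylates cytidine in RNA, and the study asked what its loss does to translation during osteoclast formation. The sources used here do not give the Cre driver, the deleted exons, the age and sex of the mice, or whether replicates came from separate animals. P-values therefore measure the spread between these libraries, which may be technical.

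Chaperones bind unfolded or partly folded proteins and let them reach their final shape. Many newly made proteins meet HSP70 and its J-domain partners first, and some pass on to HSP90, which completes the folding of kinases and steroid receptors. Prefoldin hands nascent actin and tubulin to TRiC, a barrel-shaped chaperonin in which they fold, and osteoclasts depend on both proteins for the podosome belts and microtubules with which they seal onto bone. In the mitochondrial matrix, imported proteins are folded by a separate HSP70 and by the HSP60 and HSP10 chaperonin. Many of the cytosolic genes can be induced by the heat shock transcription factor HSF1.

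The libraries held 906937 to 3014620 counts. The WT pair was less alike than the cKO pair, with coefficients of variation beyond counting noise of 0.578 and 0.247 over 7953 tested genes. WT replicate 2 had the most counts but the fewest genes with a count (9402, against 10637 in WT replicate 1). In log2 scaled counts, WT replicate 1 correlated less with WT replicate 2 (0.797) than with cKO replicates 1 and 2 (0.862 and 0.876). The correlation of WT replicate 2 with the cKO libraries was 0.760 and 0.769, and that within the cKO pair was 0.923. Nat10 counts were 101 and 72 for cKO against 77 and 148 for WT. In CPM (counts scaled to a library of fixed size) these are 69.3 and 48.5 in cKO against 84.9 and 50.8 in WT. The log2 fold change of Nat10, cKO minus WT, was -0.18 (SE 0.41, adjusted p = 0.907, edgeR quasi-likelihood test). Its sign turned when WT replicate 1 (0.25) or cKO replicate 2 (0.06) was left out, so these counts do not check the genotype labels. Of the marker lists, the stromal and osteoblast genes had 8 of 11 tested members lower in cKO at an adjusted p under 0.05 (edgeR; 0.754% of all genes tested). Another 2 of the 11 had both cKO libraries above both WT libraries (22.7% of all genes tested). Their log2 fold changes reached 2.53. The list summed to 617 to 634 CPM in cKO and 4703 to 5939 CPM in WT, with Sp7 and Bglap at 0 throughout. Of the markers of dividing cells 2 of 9 were called lower at an adjusted p under 0.05 by edgeR (391 to 438 against 668 to 784 CPM). All 9 had log2 fold changes below 0, and 5 had both cKO libraries below both WT libraries (22.6% of all genes tested). Of the macrophage markers 2 of 9 were called lower, Csf1r and Lyz2, while 4 had log2 fold changes above 0. This list summed to 35030 to 39620 CPM in cKO against 53649 to 68734 CPM in WT (Cd163 at 0). Lyz2 alone held 19660 to 22903 CPM of that in cKO and 33979 to 45731 CPM in WT. Of the osteoclast markers 1 of 10 was called lower, Mmp9. Log2 fold changes were below 0 for 9 of them (lowest -1.98), and 8 had both cKO libraries below both WT libraries. The remaining marker had a log2 fold change of 2.50, with both cKO libraries above both WT libraries. This list summed to 8013 to 8638 CPM in cKO against 12760 to 13560 CPM in WT. No neutrophil marker was called among 4 tested, all of which had both cKO libraries below both WT libraries (785 to 836 against 1333 to 1523 CPM), and 5 of the 6 lymphocyte markers were at 0. Inflammatory genes moved the other way, with 8 of 11 called higher in cKO (0.641% of all genes tested). The part of these differences in the chaperone values below was not tested. In such bulk libraries, fewer cells of a type and less RNA per cell cannot be told apart.

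No chaperone gene differed between the genotypes at an adjusted p under 0.05 with all 4 libraries (edgeR quasi-likelihood test, Benjamini-Hochberg adjustment over 7953 genes). By that rule 0.641% of all genes tested were higher and 0.754% lower in cKO, or 1.4% in either direction. At an unadjusted p under 0.05 there were 10 chaperone genes among the 39, a share of 25.6%, and 12.1% of all genes. In this and the later comparisons, members and all genes were not matched for count depth. Of the 39 members, 20 had at least 100 counts in every library. The smallest adjusted p was 0.165, for Hsp90aa1. Most chaperone genes nevertheless had somewhat higher values in cKO: 29 of 39 log2 fold changes were above 0, against 49.5% of all genes, and their median was 0.38, against -0.01. Both cKO libraries lay above both WT libraries for 20 of the 39 (51.3%; 22.7% of all genes tested), and below both for 6 (15.4%; 22.6% of all genes tested). These counts describe the list, which was chosen with earlier results of these data known, and were not tested as a group. They include 5 members with under 10 counts in a WT library, whose direction is no support for a difference (Pfdn4, Pfdn6, Dnaja1, Hspe1 and Hsf1). Over the other 34 members, 24 log2 fold changes were above 0 and the median was 0.34. The 44 genes together took 1.03% and 0.990% of all counts in cKO replicates 1 and 2 (95% Wilson intervals 1.01 to 1.04 and 0.975 to 1.01). Their share was 0.847% and 0.801% in WT replicates 1 and 2 (0.828 to 0.866 and 0.791 to 0.811). Such intervals cover counting error and not differences between cultures.

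**Figure D1:**
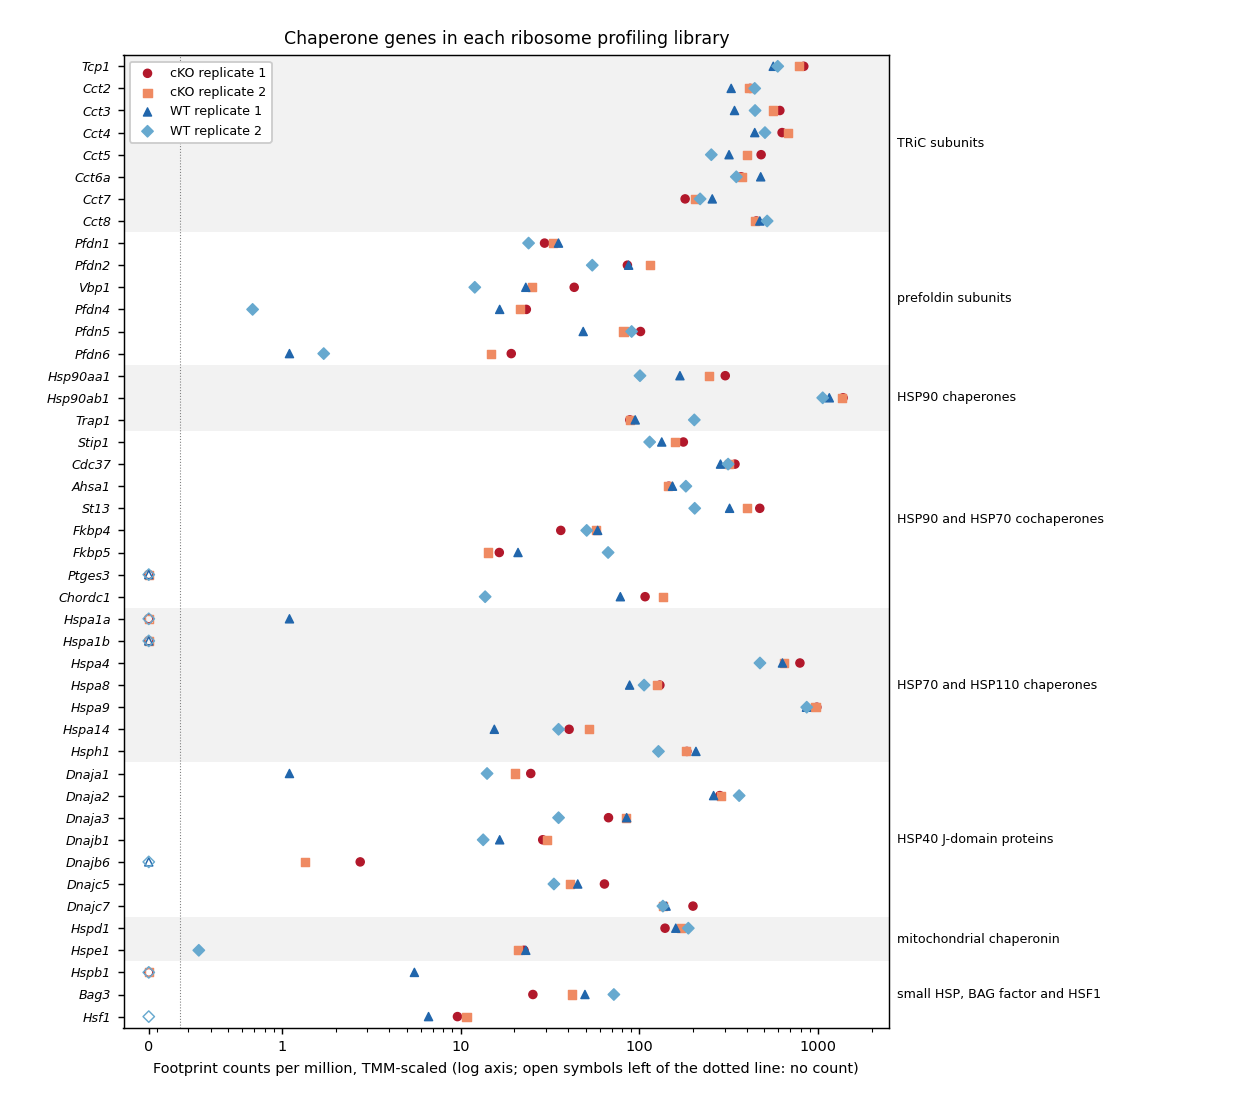
Footprint CPM (log axis, scaled by TMM factors) of the 44 chaperone genes in each of the 4 libraries, grouped by role; open symbols at the left mark a library with no count. The cKO symbols (red, orange) lie to the right of both WT symbols (blue) for 20 of the 39 tested genes, and the WT symbols lie far apart for Hspe1, Pfdn4, Dnaja1 and Chordc1.

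The number of calls depended on the tool and on the libraries included. With DESeq2 on the same genes 1 member was higher in cKO and none lower (Hsp90aa1; 1.41% and 1.35% of all genes). With limma-voom 5 were higher and none lower (Cct5, Chordc1, Hsp90aa1, St13 and Tcp1; 5.18% and 2.35% of all genes). Without the filter on low counts edgeR called 3 higher and none lower (Chordc1, Hsp90aa1 and St13; 1.48% and 1.44% of all genes). With the replicate number as a block it called none (0.842% and 0.956% of all genes). Other scalings called none either, with 0.641% of all genes higher and 0.704% lower under relative log expression or plain totals, and 0.629% and 0.767% under upper-quartile scaling. Leaving out WT replicate 1 gave 15 members higher and 3 lower, where 15.3% and 12.1% of all genes were called. Leaving out WT replicate 2 gave 5 higher and none lower, where 2.94% and 2.55% of all genes were called. These 3-library fits take the spread from the cKO pair alone and assume that the single WT library varies likewise. Called in both of them were 4 genes: Hsp90aa1, Tcp1, Cct3 and Cct4. Without cKO replicate 1 no member was called (0.396% of all genes higher, 0.43% lower), and none without cKO replicate 2 (0.452% and 0.475%).

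**Figure D2:**
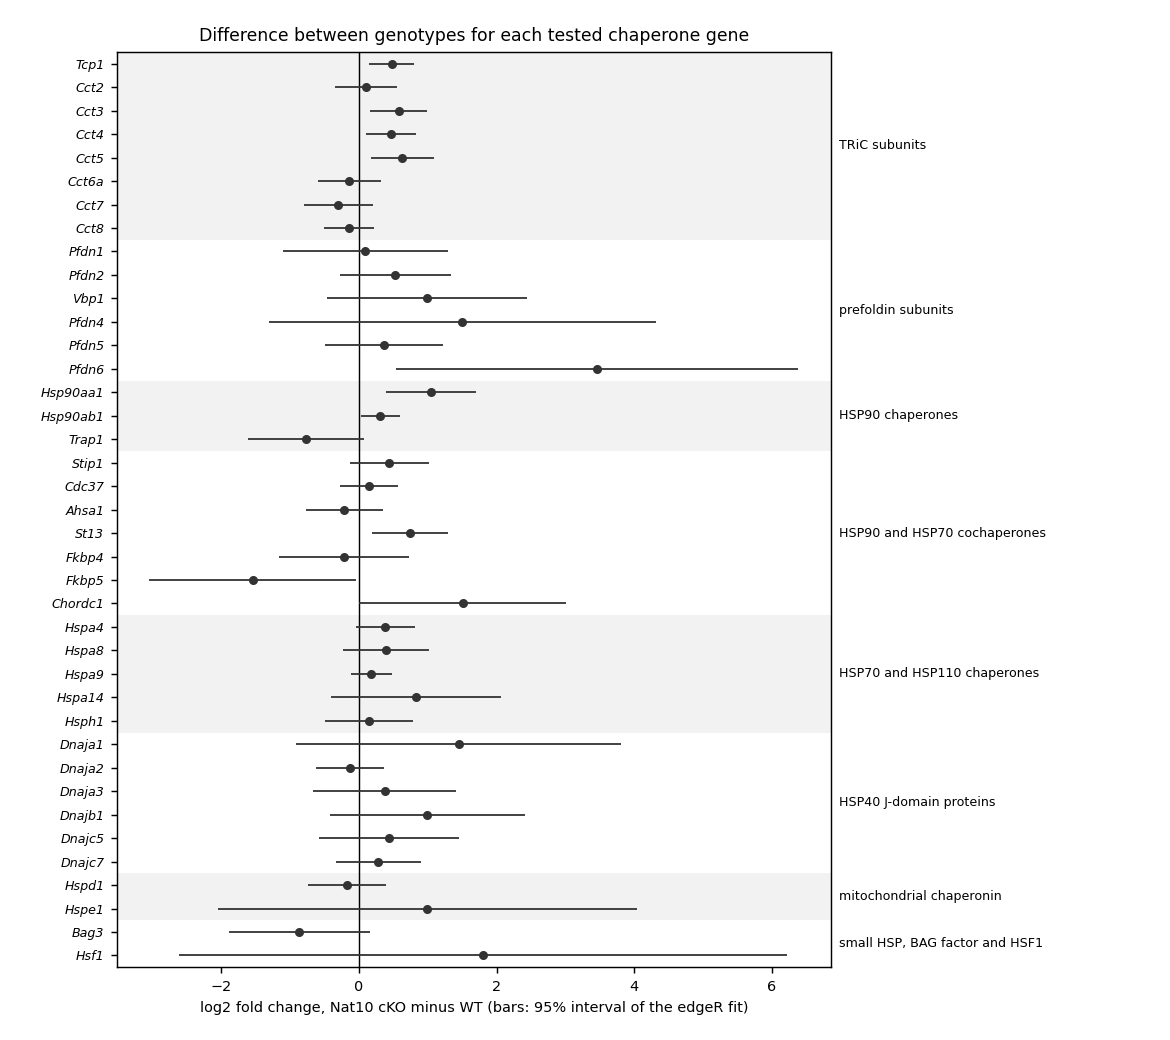
The log2 fold change (cKO minus WT, points) of the 39 tested chaperone genes with its 95% interval from the edgeR fit (bars), grouped by role. The interval lay above 0 for 9 genes and below 0 for 1, Fkbp5, before any adjustment, and it was widest for Hsf1, Hspe1, Pfdn6 and Pfdn4, which had few counts.

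The intervals also show what these data can bound. For 16 of the 39 genes the 95% interval lay within a log2 fold change of 1 in either direction, so that a change of 2-fold fell outside it: Tcp1, Cct2, Cct3, Cct4, Cct6a, Cct7, Cct8, Hsp90ab1, Cdc37, Ahsa1, Hspa4, Hspa9, Hsph1, Dnaja2, Dnajc7 and Hspd1. For the other 23 a change of that size was not bounded. Standard errors ran from 0.13 for Hsp90ab1 to 1.94 for Hsf1. Values are CPM with TMM-scaled totals and are not corrected for gene length, so a level is compared between libraries for the same gene and never between genes.

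TRiC is a double ring built from 8 different subunits, each present once per ring. Both cKO libraries lay above both WT libraries for 4 subunits (22.7% of all genes tested) and below them for 2, a share near that of all genes (22.6%). Tcp1 (ENSMUSG00000068039, the subunit CCT1; chromosome 17, 13134588 to 13143954, plus strand, GRCm39) stood at 832 and 778 CPM in cKO, against 561 and 595 CPM in WT. Its groups did not overlap, and each pair was tight. The log2 fold change was 0.48 (SE 0.14, 95% interval 0.15 to 0.81), with an adjusted p of 0.200 (edgeR, n = 2 per genotype). Tcp1 had an adjusted p of 0.0115 without WT replicate 1 and 0.0183 without WT replicate 2, but of 0.9999 without cKO replicate 1, 0.765 without cKO replicate 2 and 0.116 with DESeq2. Cct3 (ENSMUSG00000001416; chromosome 3, 88204423 to 88229074, plus strand) was at 611 and 562 CPM in cKO, against 341 and 444 CPM in WT. Here too the groups did not overlap, while the WT libraries differed more than the cKO libraries (log2 fold change 0.57, SE 0.18, 95% interval 0.16 to 0.99, adjusted p = 0.225 by edgeR). For Cct3 the adjusted p was 0.000385 without WT replicate 2 and 0.0330 without WT replicate 1, but 0.9999 without cKO replicate 1, 0.668 without cKO replicate 2 and 0.126 with DESeq2.

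Cct4 and Cct5 had the same order of libraries. Cct4 was at 629 and 678 CPM in cKO, against 442 and 504 CPM in WT. Cct5 was at 480 and 398 CPM in cKO against 318 and 253 CPM in WT. Their log2 fold changes were 0.46 (SE 0.16) and 0.63 (SE 0.20), neither past the test (adjusted p = 0.265 and 0.228, edgeR). Cct7 went the other way, at 180 and 204 CPM in cKO, against 256 and 219 CPM in WT, and so did Cct8, at 451 and 442 against 472 and 519 CPM. Neither passed the test, and both intervals held 0 (log2 fold changes -0.30, SE 0.22, and -0.15, SE 0.16). Cct2 (417 and 411 against 326 and 442 CPM) and Cct6a (371 and 376 against 478 and 349 CPM) overlapped between genotypes.

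Shares within the complex need no scaling between libraries. Tcp1 made up 20.6 ± 0.52% of the counts of the 8 subunits in cKO and 17.7 ± 0.22% in WT (SD, n = 2 each). The share of Cct3 was 15 ± 0.55% in cKO and 12.0 ± 1.90% in WT. That of Cct8 was 11.4 ± 0.077% in cKO and 15.2 ± 0.59% in WT, and that of Cct7 was 4.92 ± 0.54% and 7.30 ± 1.01%. Since shares sum to a whole, a higher share of some subunits entails a lower one of others, and these shares were not tested. The subunit Cct6a differed most between the WT libraries, at 15% and 10.5% of the complex, which is wider than its distance from the cKO mean of 9.56%.

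Prefoldin is a jellyfish-shaped hexamer of 6 different subunits that carries unfolded actin and tubulin to TRiC. All 6 genes had log2 fold changes above 0, none past the test. They had far fewer counts than the TRiC genes, which limits the test. These counts are not corrected for gene length, so they do not compare levels. Pfdn6 (ENSMUSG00000024309; chromosome 17, 34157795 to 34159317, minus strand) had 28 and 22 counts in cKO against 1 and 5 in WT. These are 19.2 and 14.8 CPM against 1.10 and 1.71 CPM, so that both WT libraries were nearly empty of Pfdn6 footprints while both cKO libraries held a modest number. The fitted log2 fold change was 3.46 (SE 1.28, 95% interval 0.54 to 6.38), with an adjusted p of 0.317 (edgeR). Pfdn6 passed the filter on low counts through its cKO libraries, so its direction is no support for a difference.

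Vbp1 (ENSMUSG00000031197; chromosome X, 74557905 to 74578548, plus strand), which encodes a prefoldin subunit, had 63 and 37 counts in cKO and 21 and 35 in WT. In CPM it stood at 43.2 and 24.9 against 23.2 and 12.0, with the lower cKO library just above the higher WT library (log2 fold change 0.99, SE 0.64, adjusted p = 0.588, edgeR). Pfdn4 showed how far the WT libraries could part: it had 34 and 32 counts in cKO and 15 in WT replicate 1, but 2 in WT replicate 2. Leaving out WT replicate 2 took its log2 fold change from 1.5 to 0.45, and leaving out WT replicate 1 took it to 4.94. Pfdn1 (29.5 and 33.0 against 35.3 and 24 CPM), Pfdn2 (85.7 and 115 against 87.1 and 54.5 CPM) and Pfdn5 (102 and 81.6 against 48.5 and 90.5 CPM) overlapped between genotypes. Pfdn5 also overlaps the gene Myg1 on the same strand, whose reads may be shared with it.

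Among the HSP90 chaperones, which act late in folding, the stress-inducible and the constitutive cytosolic gene were both higher in both cKO libraries. Hsp90aa1 (ENSMUSG00000021270, the inducible form; chromosome 12, 110657039 to 110669162, minus strand) was at 302 and 246 CPM in cKO, against 169 and 101 CPM in WT. The groups did not overlap, and the lower cKO library stood well above the higher WT library. The log2 fold change was 1.04, or 2.06-fold, with an SE of 0.29 and a 95% interval from 0.38 to 1.71, and the adjusted p of 0.165 (edgeR) missed the threshold. Hsp90aa1 was the member called most often by the other settings, in 5 of 11, with adjusted p-values between 1.36e-08 (WT replicate 1 left out) and 0.931 (cKO replicate 1 left out). Its 95% interval was above 0, as was that of Hsp90ab1.

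Hsp90ab1 (ENSMUSG00000023944, the constitutive form; chromosome 17, 45878701 to 45884197, minus strand) had the most counts of all members, 2012 and 2028 in cKO and 1048 and 3095 in WT. In CPM it stood at 1380 and 1367 against 1156 and 1061, a small gap with tight pairs (log2 fold change 0.31, SE 0.13, 95% interval 0.02 to 0.59, adjusted p = 0.365, edgeR). The difference between the fold changes of the 2 cytosolic genes was not tested. Trap1, the HSP90 of mitochondria, was at 88.5 and 89.0 CPM in cKO, against 94.8 and 203 CPM in WT. The cKO libraries and WT replicate 1 thus lay close together and WT replicate 2 stood apart. Its log2 fold change of -0.77 (SE 0.37) shrank to -0.08 without WT replicate 2.

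The cochaperones of HSP90 and HSP70 had 4 members with positive and 3 with negative log2 fold changes. St13 (ENSMUSG00000022403; chromosome 15, 81247870 to 81284278, minus strand) encodes HIP, which holds HSP70 in its substrate-bound state. It was at 472 and 399 CPM in cKO, against 320 and 204 CPM in WT, with no overlap (log2 fold change 0.74, SE 0.24, 95% interval 0.19 to 1.30, adjusted p = 0.234, edgeR). St13 had an adjusted p of 0.00855 with limma-voom and of 0.0225 without the filter on low counts, but of 0.0980 with DESeq2, and leaving out 1 library gave 1.54e-07 (WT replicate 1) to 0.9999 (cKO replicate 1). Fkbp5 (ENSMUSG00000024222; chromosome 17, 28618068 to 28736501, minus strand), an immunophilin of steroid receptor complexes whose gene glucocorticoids induce, had 24 and 21 counts in cKO and 19 and 195 in WT. In CPM these are 16.5 and 14.2 against 21.0 and 66.9, so that WT replicate 2 was far above the other libraries, which lay near each other. The log2 fold change was -1.55 (SE 0.66, 95% interval -3.05 to -0.05, adjusted p = 0.391, edgeR), and -0.44 without WT replicate 2.

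Chordc1, an HSP90-binding protein, was the mirror image. It was at 108 and 135 CPM in cKO and at 78.3 CPM in WT replicate 1, but at 13.7 CPM in WT replicate 2. Its fitted log2 fold change of 1.51 (SE 0.66, adjusted p = 0.412, edgeR) became 0.65 without WT replicate 2 and 3.18 without WT replicate 1. Stip1 encodes HOP, the adaptor that links HSP70 to HSP90, and was at 176 and 158 against 133 and 114 CPM. Cdc37, which brings kinases to HSP90, was at 343 and 318 against 285 and 314 CPM. Ahsa1, which speeds up the ATPase of HSP90, was at 146 and 144 against 153 and 182 CPM. Stip1 was apart by more than either pair's spread, with cKO at 167 ± 12.6 CPM and WT at 124 ± 13.6 CPM (SD, n = 2 per genotype), but none of these 3 genes passed the test. Fkbp4, the immunophilin relative of Fkbp5, overlapped between genotypes at 36.3 and 57.3 against 58.5 and 50.8 CPM.

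Ptges3, the gene of the HSP90 cochaperone p23, had no count in any library. A count of 0 allows up to 3 counts a library, or 0.995 to 3.31 CPM by the unscaled totals. RefSeq names 1 pseudogene of it, and the sources used here do not say how reads that match several genes were treated. Whether such reads were dropped for Ptges3 was not tested, and no level is drawn from its zeros. Pseudogenes named after a member exist for 8 of the 44 genes, among them 7 for Hspe1 and 5 for Hspd1, and their counts are uncertain for the same reason.

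HSP70 proteins bind short exposed stretches of unfolded chains, and the HSP110 proteins Hspa4 and Hsph1 help them release nucleotide. All 5 tested genes of this group had positive log2 fold changes, and none had an unadjusted p under 0.05. Hspa4 (ENSMUSG00000020361; chromosome 11, 53150641 to 53191284, minus strand) was at 791 and 646 CPM in cKO, against 632 and 473 CPM in WT. The groups were just apart, since cKO replicate 2 and WT replicate 1 were nearly equal (log2 fold change 0.38, SE 0.19, adjusted p = 0.468, edgeR). Hspa14 (ENSMUSG00000109865; chromosome 2, 3489887 to 3513851, minus strand) encodes an HSP70 that works at the ribosome on chains still being made. It had 59 and 78 counts in cKO and 14 and 103 in WT, or 40.5 and 52.6 CPM against 15.4 and 35.3 CPM (log2 fold change 0.83, SE 0.54, adjusted p = 0.591, edgeR).

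Hspa8, the constitutive HSP70 of the cytosol, was at 130 and 126 against 88.2 and 106 CPM (log2 fold change 0.39, SE 0.27). Hspa9, the HSP70 of the mitochondrial matrix, was the steadiest member, at 984 and 967 CPM in cKO, against 861 and 864 CPM in WT. Its replicates agreed within 1.02 times in either genotype, and its log2 fold change of 0.18 (SE 0.13, 95% interval -0.12 to 0.48) was bounded more closely than that of most members. Hsph1 overlapped between genotypes, at 184 and 183 against 207 and 128 CPM.

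The inducible HSP70 genes Hspa1a and Hspa1b were all but silent in the table. Hspa1b had no count in any library and Hspa1a had 1, in WT replicate 1. They are neighbours on chromosome 17 and near copies of each other, so reads common to both may have been lost or split in counting, which was not tested. The likeness runs into their promoters, shown here to let it be seen: of the 250 bases before each start in RefSeq's GRCm38.p6 promoter table, 247 were identical (98.8%). Capitals mark the heat shock element letters GAANNTTC or TTCNNGAA, the paired units that HSF1 binds, each of which reads the same on both strands. The stretches lie at chr17:34972157-34972406 (Hspa1a) and chr17:34959239-34959488 (Hspa1b), both on the minus strand and printed 5′ to 3′.
Hspa1a: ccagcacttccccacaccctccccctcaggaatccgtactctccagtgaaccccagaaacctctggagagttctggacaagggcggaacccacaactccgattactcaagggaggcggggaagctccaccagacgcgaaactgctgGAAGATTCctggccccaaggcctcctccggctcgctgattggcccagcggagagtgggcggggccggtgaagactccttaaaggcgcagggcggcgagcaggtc
Hspa1b: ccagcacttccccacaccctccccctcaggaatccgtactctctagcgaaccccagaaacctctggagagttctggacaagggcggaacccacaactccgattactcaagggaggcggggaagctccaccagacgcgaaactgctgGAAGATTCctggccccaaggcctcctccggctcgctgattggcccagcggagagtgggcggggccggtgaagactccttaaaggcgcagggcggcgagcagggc
Both hold 1 match, at positions -104 to -97 counted from the start.

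J-domain proteins deliver clients to HSP70 and switch on its ATPase. Of 6 tested, 5 had positive log2 fold changes, and none had an unadjusted p under 0.05. Dnajb1 (ENSMUSG00000005483, the main heat-inducible HSP40; chromosome 8, 84334822 to 84339282, plus strand) had 42 and 45 counts in cKO and 15 and 39 in WT. In CPM it was at 28.8 and 30.3 against 16.5 and 13.4, so that the groups were well apart and each pair was tight. For this gene the log2 fold change was 0.99, or 1.99-fold (SE 0.62, 95% interval -0.43 to 2.41, adjusted p = 0.575, edgeR), an error set by few counts. Dnaja1 (ENSMUSG00000028410, a cytosolic partner of HSP70; chromosome 4, 40722150 to 40737149, plus strand) had 36 and 30 counts in cKO, 1 in WT replicate 1 and 41 in WT replicate 2. WT replicate 2 held 14.1 CPM, not far below the cKO libraries at 24.7 and 20.2 CPM, while WT replicate 1 was nearly empty at 1.10 CPM. Its fitted log2 fold change of 1.45 (SE 1.04, adjusted p = 0.631, edgeR) was 4.25 without WT replicate 2 and 0.71 without WT replicate 1. Dnaja1 overlaps Smu1 on the other strand, and the sources used here do not give the strand setting of the counts.

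Dnaja2, the other cytosolic class A protein, was at 282 and 286 against 260 and 362 CPM. Dnaja3, which works in mitochondria, was at 67.2 and 84.3 against 84.9 and 35.3 CPM. Dnajc5, the cysteine string protein of vesicles, was at 63.8 and 41.1 against 45.2 and 33.3 CPM. Dnajc7, whose TPR repeats bind HSP70 and HSP90, was at 199.6 and 136 against 141 and 135 CPM. The genotypes overlapped for all 4. Dnajb6, a suppressor of protein aggregation, had 4 and 2 counts in cKO and none in WT, too few to test.

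HSP60 and HSP10 form the folding chamber of the mitochondrial matrix, and their genes stand head to head. Hspd1 (ENSMUSG00000025980; chromosome 1, 55116994 to 55127402, minus strand), the HSP60 gene, was at 139 and 171 CPM in cKO, against 160 and 188 CPM in WT. The genotypes overlapped (log2 fold change -0.17, SE 0.25, 95% interval -0.74 to 0.39, adjusted p = 0.847, edgeR). Hspe1 (ENSMUSG00000073676; chromosome 1, 55127291 to 55130466, plus strand), the HSP10 gene, had 33 and 31 counts in cKO and 21 in WT replicate 1, but 1 in WT replicate 2. In CPM these are 22.6 and 20.9 in cKO, 23.2 in WT replicate 1 and 0.343 in WT replicate 2. The other libraries were thus alike and WT replicate 2 was nearly empty, and the log2 fold change of 0.99 (SE 1.33, adjusted p = 0.836, edgeR) turned to -0.07 without WT replicate 2. Hspd1 in the same library held 548 counts, so the pair of genes did not move together there.

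In RefSeq's GRCm38.p6 promoter table Hspd1 has 2 starts. One lies upstream of the Hspe1 start on the opposite strand, with 215 bases between them, and the other lies past the Hspe1 start. The windows before the first of these and before the Hspe1 start hold the same 3 overlapping heat shock element matches. The shared stretch, chr1:55088053-55088082, is shown from either gene's side to make the head-to-head layout visible, with the matches in capitals.
Hspd1 (minus strand, positions -150 to -121 from the start): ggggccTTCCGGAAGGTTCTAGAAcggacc
Hspe1 (plus strand, positions -95 to -66 from the start): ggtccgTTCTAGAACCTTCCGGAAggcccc
A run of 3 alternating units, GAANNTTC followed directly by NNGAA or TTCNNGAA followed directly by NNTTC, stood before 3 of the 35 members with a window in the table (Hspd1, Hspe1 and Dnajb6), and before 0.514% of all 27025 genes in it. The paired unit alone stood before 12 of the 35 members (34.3%) and 14.5% of all genes. These 12 were Cct2, Cct5, Cdc37, Dnaja1, Dnajb6, Fkbp4, Hspa1a, Hspa1b, Hspb1, Hspd1, Hspe1 and Hsph1.

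Tested members with the paired unit did not stand out in these libraries. Their median log2 fold change was 0.15 over 8 genes (-0.22 to 1.45), and that of the 22 with a window and no match was 0.38 (-1.55 to 3.46), a description with no test. The match before Cct5, the TRiC gene with the largest log2 fold change, lay at positions -34 to -27 from its start, and that before Hsph1, whose log2 fold change was 0.15, lay at positions -54 to -47 from 1 of its 2 starts. They are printed to set a TRiC gene beside an HSP110 gene, with capitals as above, from chr15:31601862-31601891 and chr5:149636351-149636380, both on the minus strand.
Cct5: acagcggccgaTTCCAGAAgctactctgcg
Hsph1: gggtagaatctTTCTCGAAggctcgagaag
A match of letters does not show that HSF1 binds there.

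Hsf1 itself (ENSMUSG00000022556; chromosome 15, 76361622 to 76386113, plus strand), the gene of the heat shock transcription factor, had 14 and 16 counts in cKO, 6 in WT replicate 1 and none in WT replicate 2. For this gene the log2 fold change of 1.80 (SE 1.94, adjusted p = 0.780, edgeR) is thus nearly unbounded and rests on WT replicate 2, without which it was 0.63. Bag3 (ENSMUSG00000030847; chromosome 7, 128125340 to 128148705, plus strand), a BAG factor that routes HSP70 clients to autophagy, had 37 and 62 counts in cKO and 45 and 210 in WT. It was at 25.4 and 41.8 CPM in cKO, against 49.6 and 72 CPM in WT. Both WT libraries were above both cKO libraries (log2 fold change -0.87, SE 0.45, 95% interval -1.90 to 0.16, adjusted p = 0.486, edgeR), which made Bag3 1 of the 6 members in that order, with Cct7, Cct8, Trap1, Ahsa1 and Fkbp5. Hspb1, the small heat shock protein HSP27, had 5 counts, all of them in WT replicate 1.

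**Figure D3:**
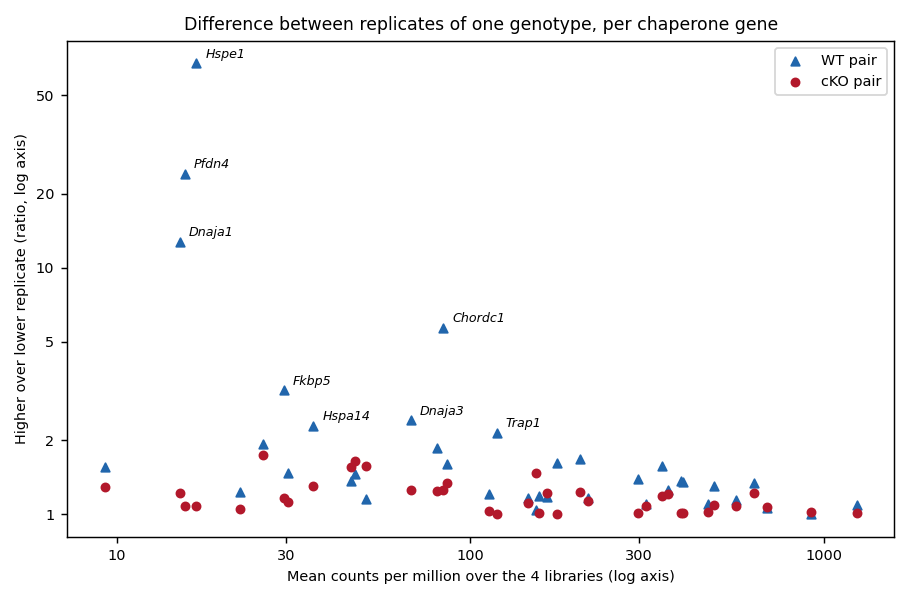
For the 38 tested chaperone genes with a count in every library, the higher over the lower replicate (ratio of CPM, log axis) of the WT pair (blue triangles) and of the cKO pair (red circles) against the mean CPM over the 4 libraries (log axis). The WT ratio is the larger for 31 of the 38, and it reaches 67.5 for Hspe1, while no cKO ratio exceeds 1.73.

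The replicates of a genotype set the limit on most of these comparisons. Over the 38 tested genes with a count in every library, the median ratio of the higher to the lower replicate was 1.13 in the cKO pair and 1.36 in the WT pair, against 1.28 and 1.52 over 7552 genes of the whole table. The cKO pair differed by at most 1.73 times, for Vbp1. The WT pair differed by 67.5 times for Hspe1, 24.1 times for Pfdn4, 12.7 times for Dnaja1 and 5.71 times for Chordc1. Among the 26 members with a mean count of at least 100, the medians were 1.08 and 1.28. Under 10 counts in at least 1 library were found for 5 tested members (Pfdn4, Pfdn6, Dnaja1, Hspe1 and Hsf1), in each case a WT library. A gene enters the test when enough libraries hold counts, so a member that is low in WT enters through cKO, and its direction is no support for a difference. Over the other 34 members the median log2 fold change was 0.34, with 24 above 0, 16 higher in both cKO libraries (22.7% of all genes tested) and 6 lower in both (22.6% of all genes tested).

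**Figure D4:**
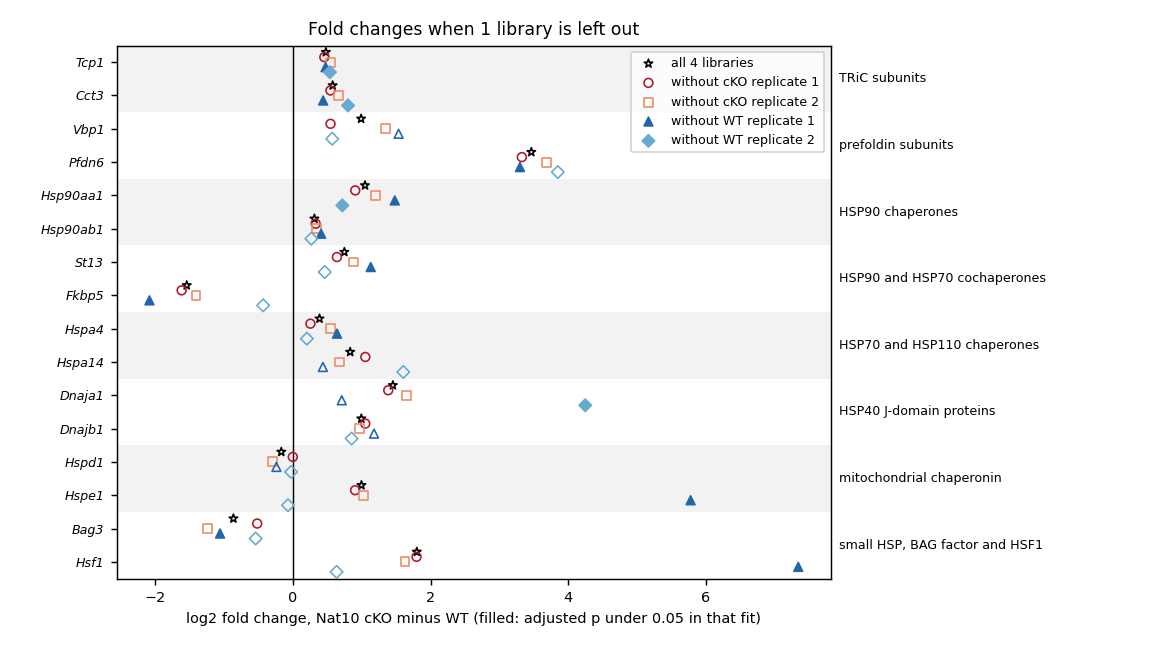
The log2 fold change (cKO minus WT) of the 16 chaperone genes with full statistics, with all 4 libraries (stars) and without each library in turn (other symbols), filled where the adjusted p of that fit was under 0.05. Hsp90aa1, Tcp1 and Cct3 are filled without either WT library, and Hspe1, Hsf1, Dnaja1 and Fkbp5 move far between the fits without WT replicate 1 and without WT replicate 2.

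Mitochondrial members were described together and were not tested against the others. The 5 genes Hspd1, Hspe1, Hspa9, Trap1 and Dnaja3 had a median log2 fold change of 0.18, between -0.77 and 0.99. They summed to 1302 and 1332 CPM in cKO against 1224 and 1291 CPM in WT. Hspa9 alone held 984 and 967 CPM of these sums in cKO and 861 and 864 CPM in WT.

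Related folding genes outside the 44, taken from 8 lists, were also without calls. Of their 80 tested genes none passed (edgeR; 11 had an unadjusted p under 0.05, or 13.8%), and the median log2 fold change was -0.07, with 35 above 0. Both cKO libraries were above both WT libraries for 27.5% of them and below for 20%. The 10 tested cofactors that help fold tubulin and actin had a median of -0.03. A list of tubulin, actin and actin-related genes (Actr2 and Actr3), taken as clients of TRiC, had 9 tested members and a median of -0.17. Log2 fold changes were below 0 for 7 of these 9 clients (lowest -1.72) and above 0 for 2, Tubb2a among them. Both cKO libraries lay below both WT libraries for 4 clients (44.4%; 22.6% of all genes tested). They lay above for 2 (22.2%; 22.7% of all genes tested). Tubb2a, a beta-tubulin gene, had the smallest p among these clients, at 127 and 154 counts in cKO and 25 and 127 in WT. In CPM these are 87.1 and 104 against 27.6 and 43.6 (log2 fold change 1.39, SE 0.38, adjusted p = 0.157, edgeR). The 18 further cochaperones had a median of -0.21. Among them Ppp5c, an HSP90-bound phosphatase, had 59 and 47 counts in cKO and 63 and 233 in WT. In CPM these are 40.5 and 31.7 against 69.5 and 79.9 (log2 fold change -1.05, SE 0.38, adjusted p = 0.308, edgeR).

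The 11 further J-domain genes had a median of -0.05, and Dnajc9, a histone-binding J-domain protein, had the smallest p among them (log2 fold change -1.58, SE 1.09). The 16 tested genes of mitochondrial import, folding and proteolysis had a median of -0.18, with 11 log2 fold changes below 0 and 5 above. The protease gene Yme1l1, 1 of these 5, had the smallest p of the list (log2 fold change 0.51, SE 0.19). The 9 genes of the segregase Vcp, its adaptors, ubiquitin-linked factors and the ER chaperones Hsp90b1 and Hspa5 had a median of 0.10. Sqstm1, the autophagy receptor p62, came nearest to the threshold of all genes on these lists, at 5002 ± 187 CPM for cKO against 3467 ± 276 CPM for WT (SD, n = 2 per genotype; log2 fold change 0.53, SE 0.11, adjusted p = 0.0533, edgeR). Of the 3 tested heat shock factor and small HSP genes, Hsbp1, an inhibitor of HSF1, had the smallest p (log2 fold change 1.06, SE 0.42). Of the 4 tested prefoldin-like and nascent chain genes it was Naca, a subunit of the nascent polypeptide-associated complex, with 29 and 17 counts in cKO and 2 and 0 in WT, which are too few for a firm fold change (log2 4.20, SE 1.82).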

How the data were processed

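The deposited values are unnormalised read counts by gene, whole numbers in 1 table of 4 libraries, which held 0 further columns of per-sample values. HTSeq, STAR, Bowtie and fastp are listed in the submitters' processing notes without versions or roles, with the builds GRCm39 and mm39. Cells were treated with cycloheximide, depleted of ribosomal RNA and made into libraries with a miRNA kit, per the labels' protocols. The sources used here do not give the region counted, the strand setting or the handling of duplicates and of reads matching several genes. Libraries held 906937, 3014620, 1467611 and 1481083 counts (WT replicates 1 and 2, cKO replicates 1 and 2), and 16 rows without a symbol were kept in the fit.

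Differences were tested with edgeR 4.0.16 in R 4.3.3 by the quasi-likelihood method (robust, genotype as the only term). The filter was filterByExpr with a minimum count of 10 and a total of 15, scaling was TMM, and Benjamini-Hochberg adjustment ran over 7953 genes, with a threshold of 0.05. Intervals are fold change ± the t quantile times its SE. The pipeline was tested on simulated counts. Alternatives were DESeq2 1.42.0, limma-voom 3.58.1, other scalings, no filter, a replicate block and leaving out each library. Libraries with the same replicate number showed no shared shift over genes (correlation of deviations -0.02). This value cannot decide whether cultures were prepared in pairs, which the labels do not give.

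The members, role groups and lists were chosen with earlier results of these data known. Full statistics went to the 2 members of each role group with the smallest p, and other lists were named by called genes or the smallest p. No protein or coding lengths were used. Motifs were searched in the 250 bases before starts in RefSeq's GRCm38.p6 table, which held 35 of the 44 genes, apart from the GRCm39 coordinates of the counts.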

Additional observations from a re-analysis of the deposited data

How the results depend on the processing

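Of the 39 tested chaperone genes, 31 kept the sign of their log2 fold change under all 11 alternatives, 26 of them because their groups do not overlap. The 8 that turned all had overlapping groups, and leaving out 1 library took Cct2 from -0.060 to 0.36, Cct6a from -0.34 to 0.13, Pfdn1 from -0.16 to 0.42, Fkbp4 from -0.56 to 0.10, Hsph1 from -0.16 to 0.56, Dnaja2 from -0.31 to 0.14, Dnaja3 from -0.15 to 1.14 and Hspe1 from -0.074 to 5.78 (lowest to highest). Nat10 ranged from -0.51 to 0.25. With 4 libraries, 51 genes of the whole table were higher and 60 lower. These counts were 184 and 179 without the filter on low counts, 112 and 107 with DESeq2 and 412 and 187 with limma-voom. Leaving out 1 library gave 35 to 1354 higher and 38 to 1066 lower. Chaperone genes higher in cKO numbered 0 with 4 libraries, 3 without the filter, 1 with DESeq2 (which left 7 members without an adjusted p), 5 with limma-voom and 0 to 15 when 1 library was left out, and those lower 0 to 3. Their median log2 fold change ran from 0.26 to 0.44 when 1 library was left out, and changed by less than its spread between replicates otherwise. The replicate number as a block gave 67 and 76 genes and 0 chaperone genes (median 0.40). The labels link the samples by a number and no more, and under the block no chaperone gene changed its side of the threshold. The cause of these differences was not tested. Depth limits the members with few counts, above all Pfdn4, Pfdn6, Dnaja1, Hspe1 and Hsf1.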
